A study of Mus musculus with 6 samples.

Results

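The Hox genes encode the homeodomain transcription factors of the 4 Hox clusters, and their mRNA was compared here between AG1478-sensitive NME cells and AG1478-resistant AGR cells. The members were all genes whose symbol is Hoxa, Hoxb, Hoxc or Hoxd followed by a number, measured by a probe set that carries no other symbol. This rule found 37 Hox genes among 19938 genes tested. They were 10 genes of the Hox A cluster and 9 genes of each of the Hox B, Hox C and Hox D clusters. Hoxb8 was measured only by a probe set shared with Hoxb7, which read 6.47, 6.53 and 6.56 on the log2 scale on the NME arrays and 6.45, 6.49 and 6.45 on the AGR arrays. The rule picks genes by symbol, although the family was chosen with earlier results of these data known.

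The measurements are 6 Affymetrix Mouse Gene 1.0 ST arrays of total RNA, 3 for each line. NME cells are NMuMG cells, an epithelial line from normal mouse mammary gland, that were transformed by overexpression of EGFR. AGR cells descend from NME cells, and so from cells made to overexpress EGFR, though their EGFR level was not examined here. They came from 1 large colony that was picked out of 3D culture in Cultrex, a basement membrane extract, under 1 µM of the EGFR inhibitor AG1478, and that was then expanded in 2D culture. The line is therefore the progeny of 1 colony, and selection by the drug, the 3D culture and the picking of that colony cannot be told apart as sources of a difference. Both lines grew in DMEM with FBS and insulin. The paper's methods state that established resistant lines were kept without drug. The labels do not say whether the 3 arrays of a line came from separate cultures, so each p-value reflects array-to-array spread that may be technical.

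Hox proteins bind DNA through the homeodomain and specify position along the body axis. The genes lie in clusters whose order along the chromosome follows the order of their expression domains, with paralog group 1 at the anterior end and group 13 at the posterior end. On their own the proteins bind short and similar sites, and cofactors of the TALE family (the Pbx, Meis and Pknox homeodomain proteins) sharpen that choice. Polycomb complexes keep Hox genes silent, Trithorax complexes keep them active, and retinoic acid and the Cdx factors switch them on in the embryo. In the mammary gland several Hox genes are known to act in branching and in milk production, and Hoxa9, Hoxb9 and Hoxd9 act together in the response of the gland to pregnancy.

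The deposited intensities were put on the log2 scale, and a fold change (FC) is given as log2 FC, AGR minus NME. A gene was called when its adjusted p from limma was under 0.05 after Benjamini-Hochberg adjustment over the 19938 genes. Because these arrays come without detection calls, levels were set against a dim reference, the 95th percentile of 1224 olfactory, vomeronasal and taste receptor genes, which was 7.21 in NME cells and 7.18 in AGR cells. Array medians of intensity lay between 190.4 and 200.8, and correlations over all probe sets were 0.9953 to 0.997 within a line and 0.9862 to 0.9878 between lines. AGR replicate 2 stood apart, with 36 genes more than 2-fold away from its sister arrays, taken as their mean, against 7 for AGR replicate 1, 1 for NME replicate 2 and 0 for each of the other arrays. The keratins Krt8 and Krt18 and the cadherin Cdh1 were far above the dim reference in both lines, while the epithelial marker Epcam (6.58 and 6.51 for NME and AGR), the alveolar factor Elf5, the progesterone receptor Pgr and the milk protein Csn2 lay below it.

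Most Hox genes gave little signal in either line. Of the 37 genes, 22 had a mean below the dim reference in both lines, which is 59.5% against 32.6% of all genes, and the other 15 had a mean above it in both. Only 11 exceeded the median of all probe sets, 7.60, in either line. By cluster, 6 of 10 genes of Hox A, 6 of 9 of Hox B, 1 of 9 of Hox C and 2 of 9 of Hox D were above the dim reference. The genes above it were Hoxa4, Hoxa5, Hoxa6, Hoxa7, Hoxa10 and Hoxa13, then Hoxb1, Hoxb2, Hoxb3, Hoxb7, Hoxb9 and Hoxb13, then Hoxc9, Hoxd9 and Hoxd11. The means of the 22 others ranged from 5.56 to 7.15. An intensity near the dim reference does not show that a gene was silent, and one above it does not show that a gene was expressed. Of the 1224 reference genes themselves, 65 lay above it in either line, and their highest mean was 9.66, against 8.84 for the Hox genes. A probe set's brightness depends on its own sequence, so levels of different Hox genes were not ranked against each other.

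**Figure D1:**
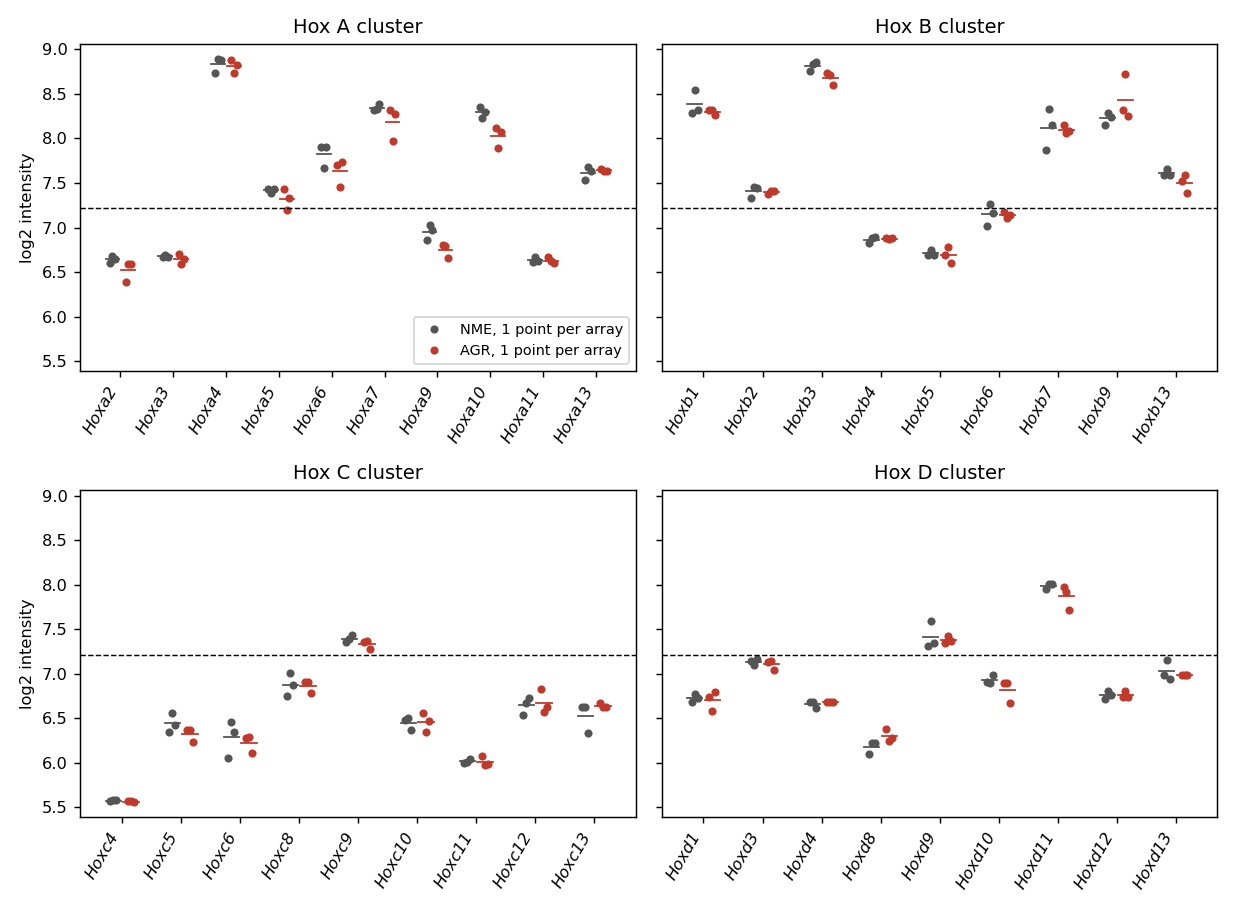
Log2 intensity of each of the 37 Hox genes in 4 panels, 1 for each cluster, with genes in order of paralog number along the x axis. Each point is 1 array (grey NME, red AGR), short lines are the means of 3 arrays and the dashed line is the dim reference at 7.21, under which 8 of 9 Hox C genes and 7 of 9 Hox D genes lie.

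No Hox gene rose and 1 fell in AGR cells. Hoxa10 was that gene, and the 36 others were not called in either direction. The called share was 2.7% of the Hox genes, against 24.2% of all genes tested. By direction, 12.6% of all genes were called higher and 11.6% lower in AGR cells. Among the 9721 genes whose mean level lay within the range of the Hox genes, the called share was 12.7%. No Hox gene passed an FC of 2 with an adjusted p under 0.05, a rule that 3.00% of all genes met. At an unadjusted p under 0.05 from limma the counts were 0 higher and 3 lower (Hoxa9, Hoxa10 and Hoxb3) among the 37 Hox genes. Over all 19938 genes they were 3392 higher and 3281 lower at that threshold. The methods' t-test called 0 Hox genes after adjustment.

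The measured differences were small. The log2 FC of the 37 Hox genes ranged from -0.27 to 0.21, with a median of -0.02, the same to 2 decimals as the median of all 19938 genes. The median absolute log2 FC was 0.04, against 0.09 over all genes. These medians were drawn toward 0 by the dim genes. Among the 15 Hox genes above the dim reference, 13 were negative and 2 positive. That split holds for the intensities as deposited and was not recomputed with arrays centred on their medians. Such centring made the split of all 37 genes 17 negative and 20 positive. The share of negative signs among all genes at this level was not computed. The median log2 FC of the 15 Hox genes was -0.08 and their median absolute log2 FC 0.10. In the 22 genes below it, 15 negative and 7 positive, the same medians were -0.01 and 0.02. In 34 of the 37 genes the 95% interval of the log2 FC included 0, and no interval reached an FC of 1.5. The widest bound belonged to Hoxb9, at an FC of 1.41. These bounds hold for the intensities as deposited, and for a gene near the dim reference the intensity can understate a change in mRNA.

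The sign of the log2 FC was negative for 28 Hox genes and positive for 9 (17 and 20 with each array centred on its median), while it was negative for 11201 and positive for 8737 of all genes. The median log2 FC of the Hox genes changed sign when each array was centred on its median (0.005) and when NME replicate 2 was left out (0.0043). The replicate arrays of a Hox gene lay close together, with an SD under 0.1 in at least 1 line for 34 of the 37 genes. For 18 of the 37, at least 2 arrays held exactly the same intensity, as did 27.2% of all probe sets. Hoxd4 had only 2 distinct values over the 6 arrays, with all 3 AGR arrays identical. An SD of such a gene may understate its error.

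**Figure D2:**
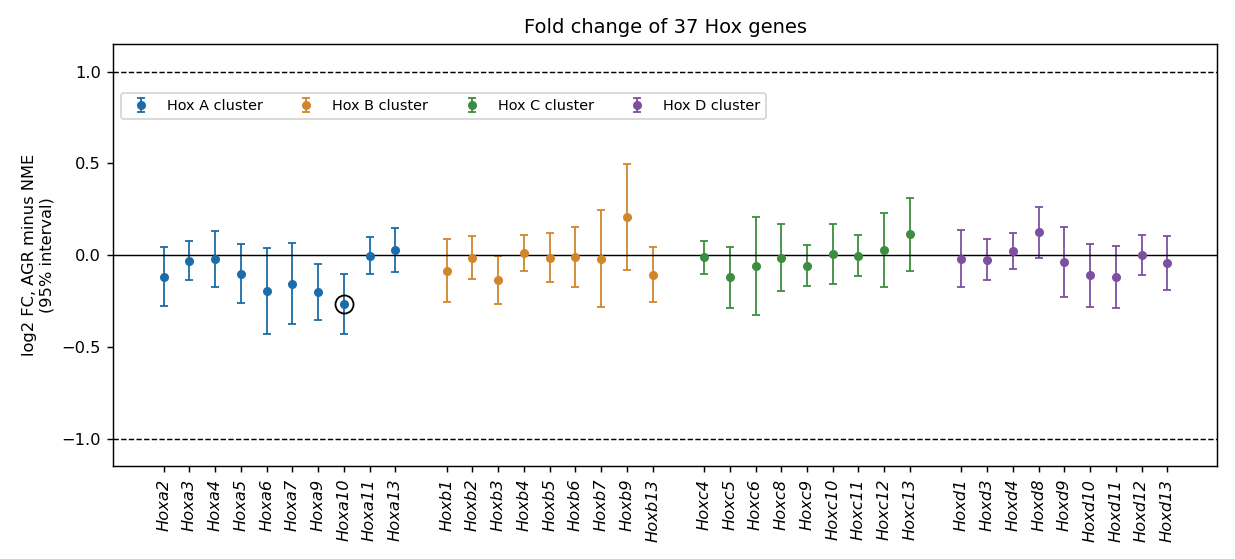
Log2 FC (AGR minus NME, y axis) of the 37 Hox genes with its 95% interval from limma, in order of cluster and paralog number along the x axis, with clusters in different colours and dashed lines at an FC of 2 in either direction. Hoxa10, circled, is the only called gene, and no interval comes near the dashed lines.

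The Hox A cluster held the only called gene. Hoxa10, a posterior factor best known for its part in the uterus and in leukaemia, read 8.35, 8.23 and 8.30 on the NME arrays and 8.12, 7.90 and 8.07 on the AGR arrays. All 3 AGR arrays lay below all 3 NME arrays. In these bulk samples, fewer cells that express a gene and less RNA per cell cannot be told apart. The means were 8.29 ± 0.06 in NME cells and 8.03 ± 0.12 in AGR cells (SD, n = 3 each), and the log2 FC was -0.27 with an SE of 0.07 and a 95% interval from -0.43 to -0.10 (limma, adjusted p = 0.0314). The call was lost when NME replicate 1 (adjusted p = 0.116), NME replicate 2 (0.0572), NME replicate 3 (0.1) or AGR replicate 3 (0.078) was left out (all from limma), and when arrays were centred on their medians (log2 FC -0.24, adjusted p = 0.0529). It remained without AGR replicate 2, the array that stood apart, at a log2 FC of -0.20 and an adjusted p of 0.0399.

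RefSeq lists 2 transcription starts for Hoxa10 in GRCm38.p6, both on the minus strand of chromosome 6. The 250 bases before each start are shown because Hoxa10 was the only called Hox gene, a choice made after its values were seen, and the capitals mark CG dinucleotides, the sites of DNA methylation in promoters.
Hoxa10, chr6:52234940-52235189: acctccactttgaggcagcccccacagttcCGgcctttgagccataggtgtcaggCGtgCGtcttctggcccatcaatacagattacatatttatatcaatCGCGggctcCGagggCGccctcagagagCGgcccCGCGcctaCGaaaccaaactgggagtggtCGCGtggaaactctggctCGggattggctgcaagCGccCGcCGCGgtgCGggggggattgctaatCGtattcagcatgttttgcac
Hoxa10, chr6:52240855-52241104: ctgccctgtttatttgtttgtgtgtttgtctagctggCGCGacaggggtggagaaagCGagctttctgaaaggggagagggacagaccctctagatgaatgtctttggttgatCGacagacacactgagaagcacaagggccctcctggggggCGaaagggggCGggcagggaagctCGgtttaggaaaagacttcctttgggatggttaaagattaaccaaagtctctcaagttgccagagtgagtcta
The first stretch holds 20 CG dinucleotides and the second 7. In the full windows, which add 50 bases after the start, the CG counts were 21 and 12 and the GC contents 57.3% and 54.3%. Over the 23 windows listed for 21 of the 37 measured Hox genes, the median CG count was 15 (range 4 to 45) and the median GC content 58%, against 7 and 52.7% over all 32851 windows. On either strand, the TATA box letters TATAAA occurred in 13% of the Hox windows and 13.6% of all windows, the CCAAT box letters CCAAT in 60.9% and 37.4%, and TGATNNAT, letters that Pbx and Hox proteins are known to bind together, in 13% and 8.85%. The first Hoxa10 window holds TATAAA and CCAAT only on the strand opposite to that shown, so the printed letters read tttata and attgg. Whether either acts in transcription was not tested. The second window holds none of the 3 motifs. The arrays measure RNA, so they do not tell which start was used, and no methylation was measured.

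Hoxa9, the neighbour of Hoxa10 in the cluster, read 6.86, 7.03 and 6.97 on the NME arrays and 6.80, 6.80 and 6.66 on the AGR arrays, which is below the dim reference throughout. The lines did not overlap, and the log2 FC was -0.20 (limma, adjusted p = 0.0661), so Hoxa9 was not called. Its RefSeq window, at 49.7% GC with 4 CG dinucleotides, has a CG count below which no Hox window lay.

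Hoxa7, a factor of the middle of the cluster, read 8.32, 8.33 and 8.38 on the NME arrays and 8.32, 7.97 and 8.27 on the AGR arrays. The AGR arrays lay below the NME arrays, but AGR replicate 1 equalled the lowest NME array at 2 decimals. AGR replicate 2 was lowest, and the log2 FC was -0.16 (limma, adjusted p = 0.314). Hoxa6 read 7.91, 7.67 and 7.91 on the NME arrays and 7.71, 7.46 and 7.73 on the AGR arrays, and here the lines overlapped (log2 FC -0.20, limma adjusted p = 0.226). With the replicate number as a block in the model, Hoxa6 was called lower (limma, adjusted p = 0.036). Whether those numbers pair the arrays is not known. Hoxa5, which is needed for normal lung development and acts in mammary epithelium, read 7.44, 7.39 and 7.44 on the NME arrays and 7.44, 7.19 and 7.33 on the AGR arrays. AGR replicate 1 equalled the higher NME arrays, AGR replicate 2 was lowest, and the log2 FC was -0.10 (limma, adjusted p = 0.365).

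Hoxa4, an anterior factor, read 8.74, 8.89 and 8.88 on the NME arrays and 8.88, 8.74 and 8.83 on the AGR arrays. The lines overlapped throughout, with a log2 FC of -0.02 (limma, adjusted p = 0.862). Hoxa13, the last gene of the cluster and a factor of limb and urogenital development, read 7.53, 7.68 and 7.64 on the NME arrays and 7.66, 7.64 and 7.63 on the AGR arrays. It was the only Hox A gene with a positive log2 FC (0.03, limma adjusted p = 0.787), and its lines overlapped. Hoxa2, Hoxa3 and Hoxa11 lay below the dim reference, and of these Hoxa2 did not overlap between the lines, at 6.61, 6.68 and 6.64 on the NME arrays and 6.38, 6.59 and 6.59 on the AGR arrays (log2 FC -0.12, limma adjusted p = 0.287). The annotated span of Hoxa3 covers Hoxa4, Hoxa5 and Hoxa6, so a probe set of one of them may also measure RNA of another.

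The median log2 FC of the Hox A cluster was -0.11, with 9 genes negative and 1 positive (7 and 3 with arrays centred on their medians), against -0.01 for Hox B, -0.01 for Hox C and -0.03 for Hox D. The cluster A median kept its sign under every alternative run, but it was -0.04 without AGR replicate 2. On AGR replicate 2, 5 of the 10 Hox A genes had their lowest value of all arrays. The median deviation of the Hox A genes from the NME mean was -0.004 on AGR replicate 1, -0.13 on AGR replicate 2 and -0.06 on AGR replicate 3, and -0.02, 0.02 and 0.02 on the NME arrays. For Hox B, Hox C and Hox D the sign of the median turned positive when the arrays were centred on their medians or quantile normalized, and when NME replicate 2 was left out. Whether the clusters differ was not tested.

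**Figure D3:**
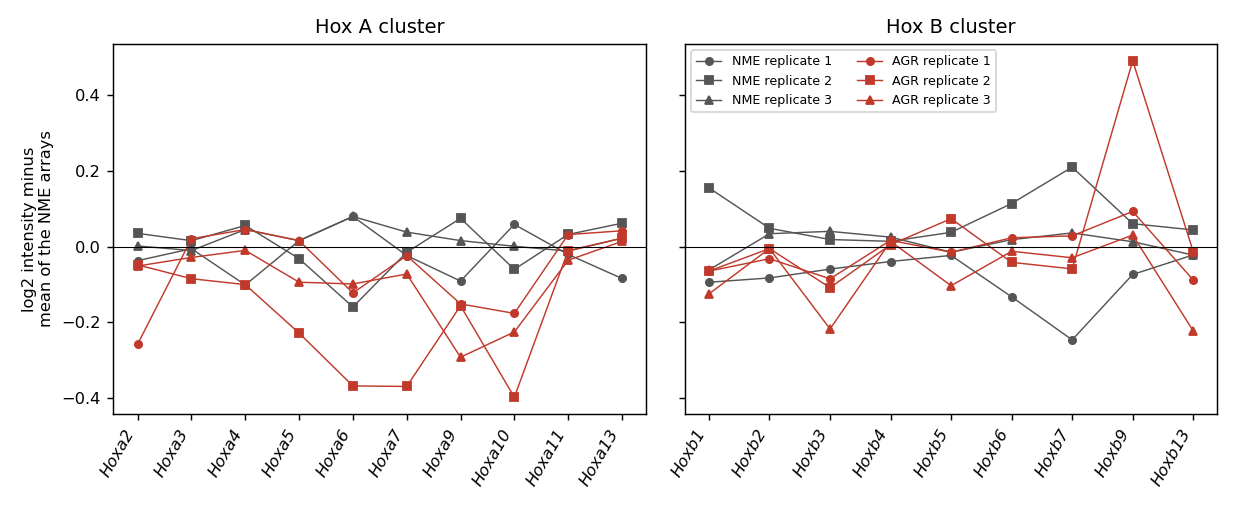
Log2 intensity of each array minus the mean of the 3 NME arrays (y axis) for the genes of the Hox A and Hox B clusters, in order of paralog number along the x axis, with grey lines for NME arrays, red lines for AGR arrays and a different marker for each replicate. AGR replicate 2 is the lowest array for 5 of the 10 Hox A genes and the highest for Hoxb9.

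In the Hox B cluster, Hoxb9, a posterior factor of the mammary gland, had the largest positive log2 FC of all Hox genes and was not called. It read 8.15, 8.29 and 8.24 on the NME arrays and 8.32, 8.72 and 8.26 on the AGR arrays. AGR replicate 2 alone stood well above the other arrays, AGR replicate 3 lay within the NME range, and the log2 FC of 0.21 had a 95% interval from -0.08 to 0.49 (SE 0.12, limma adjusted p = 0.31). Hoxb3, an anterior factor of the hindbrain, read 8.76, 8.83 and 8.86 on the NME arrays and 8.73, 8.71 and 8.60 on the AGR arrays. All AGR arrays lay below all NME arrays, by a log2 FC of -0.14 that was not called (SE 0.05, limma adjusted p = 0.127). The annotated spans of Hoxb3 and Hoxb4 overlap.

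Hoxb7, which has been linked to growth of breast cancer cells, read 7.87, 8.33 and 8.15 on the NME arrays and 8.15, 8.06 and 8.09 on the AGR arrays. The 3 NME arrays were more spread than for any other Hox gene (SD 0.23) and enclosed the AGR arrays, with a log2 FC of -0.02 (limma, adjusted p = 0.932). Hoxb1, the anterior end of the cluster, read 8.29, 8.54 and 8.32 on the NME arrays and 8.32, 8.32 and 8.26 on the AGR arrays, with overlap between the lines (log2 FC -0.08, limma adjusted p = 0.498). Hoxb13, the posterior end and a factor of the prostate, read 7.59, 7.65 and 7.59 on the NME arrays and 7.52, 7.60 and 7.39 on the AGR arrays, also with overlap (log2 FC -0.11, limma adjusted p = 0.3). Hoxb2 gave nearly the same level in both lines, at 7.33, 7.46 and 7.44 on the NME arrays and 7.38, 7.40 and 7.40 on the AGR arrays (log2 FC -0.01, limma adjusted p = 0.89). Hoxb4, Hoxb5 and Hoxb6 lay below the dim reference with a log2 FC between -0.01 and 0.01.

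Of the Hox C cluster only Hoxc9 lay above the dim reference, and only by a small margin, at 7.35, 7.39 and 7.44 on the NME arrays and 7.35, 7.37 and 7.28 on the AGR arrays. The lines overlapped (log2 FC -0.06, limma adjusted p = 0.476). Hoxc4, Hoxc5, Hoxc6, Hoxc8, Hoxc10, Hoxc11, Hoxc12 and Hoxc13 lay below it, with log2 FC values between -0.12 for Hoxc5 and 0.11 for Hoxc13, and every one overlapped between the lines. For Hoxc4 the mean was 5.58 ± 0.0092 over the NME arrays and 5.56 ± 0.0044 over the AGR arrays (SD, n = 3 each).

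In the Hox D cluster, Hoxd11, a factor of the forelimb and kidney, read 7.95, 8.01 and 8.01 on the NME arrays and 7.97, 7.92 and 7.72 on the AGR arrays. AGR replicate 3 was lowest and AGR replicate 1 lay within the NME range (log2 FC -0.12, limma adjusted p = 0.318). The annotated spans of Hoxd10 and Hoxd11 overlap. Hoxd9 read 7.31, 7.59 and 7.35 on the NME arrays and 7.35, 7.43 and 7.37 on the AGR arrays, where NME replicate 2 alone was high and the lines overlapped (log2 FC -0.04, limma adjusted p = 0.815). Hoxd8 was the only Hox gene whose AGR arrays all lay above its NME arrays, at 6.09, 6.22 and 6.22 on the NME arrays and 6.38, 6.24 and 6.28 on the AGR arrays, below the dim reference (log2 FC 0.12, limma adjusted p = 0.205). The other genes of the cluster, Hoxd1, Hoxd3, Hoxd4, Hoxd10, Hoxd12 and Hoxd13, lay below the dim reference with log2 FC values between -0.11 and 0.02.

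Across the clusters, the lines did not overlap for 6 of the 37 Hox genes, or 16.2%, against 36.4% of all genes tested. Hoxa2, Hoxa7, Hoxa9, Hoxa10 and Hoxb3 were lower in every AGR array, and Hoxd8 was higher. By position along the body axis, the 7 measured genes of paralog groups 1 to 3 were all negative, with a median log2 FC of -0.03, but only 4 were negative with arrays centred on their medians or quantile normalized. The 14 genes of groups 4 to 8 were negative for 11 and positive for 3 (median -0.02), and the 16 genes of groups 9 to 13 were negative for 10 and positive for 6 (median -0.02), and both medians turned positive (0.0093 and 0.0061) under centring on array medians. The array with the lowest value was most often NME replicate 1 (13 genes) or AGR replicate 3 (12 genes).

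Noncoding genes of the Hox clusters include long antisense RNAs and the microRNA families miR-10 and miR-196, which target Hox mRNAs, and miR-615, encoded within Hoxc5. The mature 5p arms of the first 2 families and the 3p arm of miR-615 are shown to make their shared seeds visible, with bases 2 to 8 (the seed that pairs with targets) in capitals, from RefSeq.
mmu-miR-10a-5p: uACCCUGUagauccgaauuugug
mmu-miR-10b-5p: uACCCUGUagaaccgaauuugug
mmu-miR-196a-5p: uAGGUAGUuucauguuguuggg
mmu-miR-196b-5p: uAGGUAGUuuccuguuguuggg
mmu-miR-615-3p: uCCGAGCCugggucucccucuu
Mir10a, beside Hoxb4, and Mir10b, beside Hoxd4, thus share 1 seed, and Mir196a-1 (Hox B), Mir196a-2 (Hox C) and Mir196b (Hox A) share another. The probe sets read RNA from the genes, not the mature miRNAs.

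A probe set with no other symbol measured 10 of these noncoding genes, and 0 were called by limma (unadjusted p under 0.05: 0 higher, 0 lower). Over all genes 24.2% were called. In both lines 7 of the 10 lay below the dim reference, so their values tell little about a change. Their log2 FC ranged from -0.14 for Mir196a-1 to 0.09 for Mir196a-2. Mir196b, which lies between Hoxa9 and Hoxa10, read 6.62, 6.72 and 6.63 on the NME arrays and 6.63, 6.61 and 6.39 on the AGR arrays. The highest AGR array lay within the NME range, and the log2 FC was -0.11 (limma, adjusted p = 0.364). Mir10a read 4.27, 4.14 and 4.13 on the NME arrays and 3.97, 4.08 and 4.13 on the AGR arrays, far below the dim reference. Mir615 read 8.69, 9.04 and 8.72 on the NME arrays and 8.80, 8.80 and 8.86 on the AGR arrays, with overlapping lines and a log2 FC of -0.0009 (limma, adjusted p = 0.998). The other 5 were Haglr, Hottip, Hoxaas2, Hoxd3os1 and Mir10b, with a log2 FC between -0.10 and 0.03. Hotair, Hotairm1, Hotairm2, Haglros and Halr1 were not measured this way.

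Genes that act with the Hox genes or beside them were taken from lists. Over all genes 24.2% were called, with a median log2 FC of -0.02. That share is not matched for level, and it was 12.7% among genes within the range of the Hox genes. In either line 29 of 30 Polycomb genes and 21 of 21 Trithorax and H3K27 demethylase genes exceeded the median of all probe sets. A called share for genes as bright as these was not computed. Of the TALE cofactors 1 fell and 0 rose among 10 measured (the list also holds the Tgif genes). Meis2, which binds DNA together with Pbx and Hox proteins, read 9.36, 9.17 and 9.29 on the NME arrays and 8.60, 8.38 and 8.75 on the AGR arrays. Every AGR array lay well below every NME array, with a log2 FC of -0.70 (SE 0.10, limma adjusted p = 0.00301). It was the largest difference among the Hox genes and their cofactors, and it was -0.60 without AGR replicate 2 (limma, adjusted p = 0.00331). Meis1 differed little, at 7.78, 7.73 and 7.78 on the NME arrays and 7.78, 7.75 and 7.83 on the AGR arrays (log2 FC 0.02, limma adjusted p = 0.773). Pbx3, another partner of Hox proteins, read 10.59, 10.37 and 10.63 on the NME arrays and 10.94, 10.59 and 10.95 on the AGR arrays, where AGR replicate 2 reached the NME range and the other AGR arrays lay above it (log2 FC 0.30, limma adjusted p = 0.126). The count of called cofactors was 3 without AGR replicate 2.

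Of 30 measured Polycomb genes, 7 rose and 6 fell, with a median log2 FC of -0.02 and none at an FC of 2. Ezh2, the main H3K27 methyltransferase, read 12.00, 11.85 and 12.00 on the NME arrays and 12.42, 12.31 and 12.42 on the AGR arrays and rose (log2 FC 0.43, SE 0.06, adjusted p = 0.00272 by limma). Its paralog Ezh1 read 10.33, 10.24 and 10.25 on the NME arrays and 9.77, 9.98 and 9.92 on the AGR arrays and fell (log2 FC -0.38, SE 0.07, adjusted p = 0.00571 by limma). Both differences left no overlap between the lines. Among the other genes of Polycomb repressive complex 2 that rose were Suz12 (0.24), the histone-binding subunit Rbbp4 (0.25), Aebp2 (0.36) and Epop (0.21), while its accessory subunit Phf1 fell (log2 FC -0.28).

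Genes of Polycomb repressive complex 1 moved both ways. L3mbtl2 (log2 FC 0.51) and Phc1 (0.41) rose. Bmi1, which stimulates the ubiquitin ligase of the complex, read 10.25, 10.18 and 10.15 on the NME arrays and 9.77, 9.86 and 9.99 on the AGR arrays and fell (log2 FC -0.32, SE 0.07, adjusted p = 0.013 by limma). Pcgf6 (-0.38), the ubiquitin ligase Ring1 (-0.28) and Pcgf5 (-0.26) also fell. The called count of the whole list was 6 with the methods' t-test and 6 to 16 when 1 array was left out, lowest without NME replicate 1 and highest without AGR replicate 2.

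Of 21 measured Trithorax and H3K27 demethylase genes, 5 rose and 2 fell, with a median log2 FC of 0.10. Kmt2a (MLL1), the H3K4 methyltransferase that maintains Hox expression, read 10.34, 10.53 and 10.54 on the NME arrays and 10.80, 10.88 and 10.83 on the AGR arrays and rose (log2 FC 0.37, SE 0.06, adjusted p = 0.00683 by limma). Psip1, which tethers it to chromatin, rose as well (9.36, 9.18 and 9.37 on the NME arrays and 9.94, 9.60 and 9.87 on the AGR arrays, log2 FC 0.50), as did the core subunit Dpy30 (0.34), the elongation complex gene Mllt1 (0.24) and Hcfc1 (0.19). Kmt2c, a methyltransferase of enhancers, fell from a mean of 9.86 ± 0.03 to one of 9.34 ± 0.14 (SD, n = 3 each). Setd1b fell as well (log2 FC -0.26). The H3K27 demethylase Kdm6b had a log2 FC of -0.47 without a call, and AGR replicate 2 lay within the NME range (10.92, 11.02 and 11.15 on the NME arrays and 10.19, 10.98 and 10.52 on the AGR arrays, limma adjusted p = 0.133). Without AGR replicate 2 the called count of this list was 13, and without AGR replicate 3 it was 4.

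Of 21 measured retinoid and Cdx genes, 2 rose and 1 fell. Rdh10, the dehydrogenase that makes retinal from retinol, read 11.35, 11.32 and 11.35 on the NME arrays and 12.14, 12.35 and 12.22 on the AGR arrays and rose (log2 FC 0.89, SE 0.06, adjusted p = 0.000108 by limma). The receptor Rarg read 9.71, 9.71 and 9.71 on the NME arrays and 9.87, 10.13 and 10.00 on the AGR arrays and rose by a log2 FC of 0.29 (limma, adjusted p = 0.0213). Cdx2, a homeodomain factor that activates posterior Hox genes, fell (log2 FC -0.36, SE 0.06, adjusted p = 0.00408 by limma), from a mean of 7.95 ± 0.06 to one of 7.60 ± 0.08 (SD, n = 3 each). The enzymes that clear retinoic acid, Cyp26a1, Cyp26b1 and Cyp26c1, had log2 FC values of -0.10, 0.08 and -0.09 and were not called. Rarb, a gene that retinoic acid itself induces, read 6.75, 7.04 and 6.95 on the NME arrays and 6.84, 6.87 and 6.75 on the AGR arrays (log2 FC -0.09, limma adjusted p = 0.505). Rarb and Cyp26a1 lay below the dim reference in both lines, so their values tell little. Larger differences without overlap, also not called by limma, were those of Aldh1a1 (log2 FC 0.50, adjusted p = 0.0686) and Dhrs3 (-0.62, adjusted p = 0.119). The called count rose from 3 to 6 without AGR replicate 2.

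Genes next to the clusters were also listed, but their levels do not match those of the Hox genes. In either line 29 of the 40 exceeded the median of all probe sets, against 11 of the 37 Hox genes. Their highest mean was 12.96, against 8.84 for the Hox genes. The 5 nearest tested genes on either side of each cluster made 40, of which 4 rose and 8 fell, with a median log2 FC of -0.06. At the Hox A cluster, Snx10 (log2 FC 0.49) and the heterochromatin protein gene Cbx3 (0.29) rose and Hibadh fell (-0.21), though with the mean of all its probe sets Hibadh had a log2 FC of 0.01. At Hox B, the heterochromatin protein gene Cbx1 (0.35) and Snx11 (0.21) rose. At Hox C, the ATP synthase gene Atp5g2 (-0.36), Calcoco1 (-0.25) and the DNA repair glycosylase gene Smug1 (-0.21) fell. At Hox D, Nfe2l2, the oxidative stress factor Nrf2, read 12.80, 12.66 and 12.68 on the NME arrays and 12.15, 12.11 and 12.25 on the AGR arrays and fell (log2 FC -0.54, SE 0.06, adjusted p = 0.000929 by limma), as did Atp5g3 (-0.34), Agps (-0.30) and Atf2 (-0.28). Called genes on the flanks were thus 3 of 10 at Hox A, 2 of 10 at Hox B, 3 of 10 at Hox C and 4 of 10 at Hox D.

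**Figure D4:**
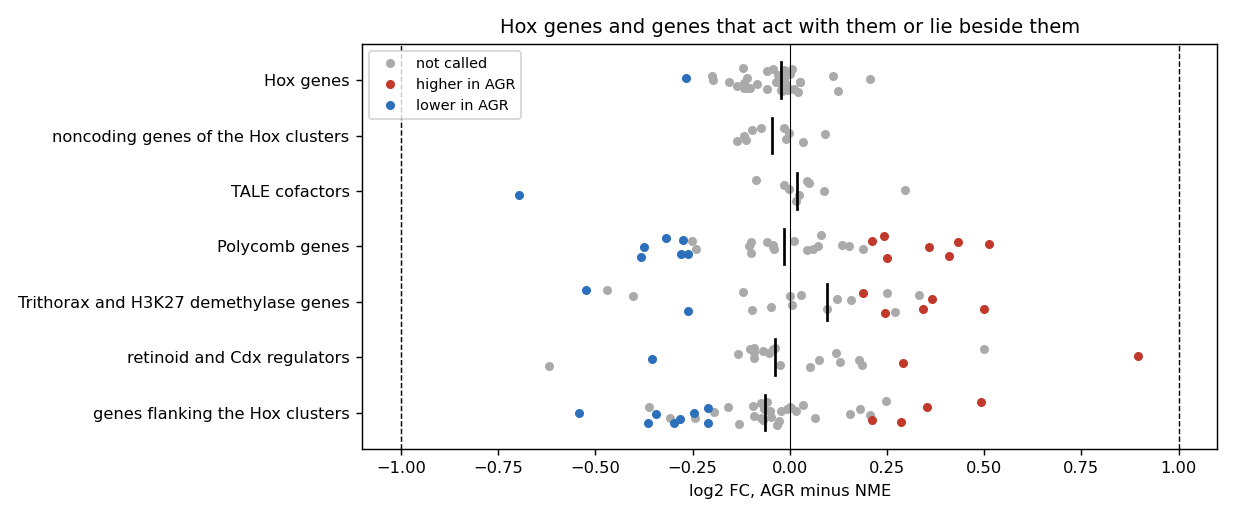
Log2 FC (AGR minus NME, x axis) of every measured gene of the Hox clusters and of the lists of cofactors, regulators and flanking genes, 1 point per gene, with red and blue points for genes called higher and lower by limma, a black bar at each list's median and dashed lines at an FC of 2. The 37 Hox genes lie between -0.27 and 0.21 with 1 called point, while Meis2 and Rdh10 lie farthest from 0 in their lists.

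Markers of other cell types were set beside these values. The mean level of 9 fibroblast markers was 7.09 to 7.20 on the NME arrays and 7.12 to 7.19 on the AGR arrays, with Pdgfra higher. That of 8 endothelial markers was 7.05 to 7.17 and 7.02 to 7.10, with none called. The 7 immune markers averaged 7.06 to 7.10 in NME and 7.25 to 7.31 in AGR cells, with Cd68 and Csf1r higher and the leukocyte gene Ptprc below the dim reference in both. The 14 mammary epithelial markers averaged 9.07 to 9.14 and 8.98 to 8.99, with Gata3 higher and Krt19 and Cdh1 lower. The 7 adipocyte markers averaged 7.60 to 7.65 and 7.44 to 7.52, with Pparg higher and Cidec lower. The largest marker difference was in 9 genes for liver plasma proteins, 9.63 to 9.77 in NME and 7.05 to 7.31 in AGR cells, of which 6 fell. The part of any such difference in the Hox, cofactor and regulator values was not tested.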

How the data were processed

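Groups were taken from the sample titles, and 6 arrays were analysed, 3 of NME and 3 of AGR cells. The submitters' design text speaks of 3 groups, while it and the titles name only these 2. The authors deposited processed, linear intensities for 35557 probe sets. The submitters' processing notes name MAS5, whose version and settings are not given in the sources used here, and since this array type lacks the mismatch probes that MAS5 reads, the normalization stays unknown. Without counts or detection calls, the number of arrays limits the precision.

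Log2 was taken with no offset and no further normalization. One gene symbol was carried by 21789 probe sets, several by 1621 and none by 12147. Only the first kind was used, with the brightest probe set of each gene over all arrays, which left 19938 genes. By gene ID, 19856 of them matched RefSeq (GRCm38.p6), and 0 symbols differed. AGR was compared with NME with lmFit and eBayes (limma 3.58.1, R 4.3.3), and p-values were adjusted over all genes by the Benjamini-Hochberg method. The genes named were all Hox genes, with values per array for those called or above the dim reference, and of the other lists the called genes with the largest absolute log2 FC, up to 4 in each direction. Other genes named were added for their role or position after their values had been seen. The members and lists were chosen with earlier results of these data known. Promoter and miRNA sequences came from RefSeq. The steps were tested on simulated data. The alternatives were quantile normalization, centring on array medians, leaving out genes whose mean was under 7.60 in both lines, the mean of a gene's probe sets, a trended and robust eBayes, the methods' t-test, an offset of 16, the replicate number as a block, and leaving out each array in turn. Single cofactor, regulator and flanking genes, single Hox genes not called and cluster medians were recomputed under these settings after the data were seen.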

Additional observations from a re-analysis of the deposited data

How the results depend on the processing

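Over 14 alternatives, the count of Hox genes called higher was 0 throughout and that of Hox genes called lower was 0 to 2. Hoxa10 was called in 8 of the 14, with a log2 FC from -0.31 to -0.20 and a limma adjusted p from 0.0162 to 0.116. The count of Hox genes called lower was 1 as reported, 0 with arrays centred on their medians, 0 with the methods' t-test, and 0 to 1 when 1 array was left out. The median log2 FC of the Hox genes was -0.11 over the 11 genes left when dim genes were taken out, and -0.0723 to 0.0043 when 1 array was left out. With the methods' t-test, the called counts were 6 Polycomb, 4 Trithorax and 6 flanking genes, against 13, 7 and 12 as reported. The retinoid and Cdx count was 5 instead of 3 after quantile normalization and 5 with dim genes left out. Leaving out 1 array gave 1 to 3 called TALE genes, 6 to 16 Polycomb genes, 4 to 13 Trithorax genes, 2 to 6 retinoid and Cdx genes and 7 to 12 flanking genes. Hibadh changed sign to 0.0119 with the mean of its probe sets. Over all genes, 3275 to 5356 were called, against 4819 as reported. The cause of these shifts was not tested.

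The deviations of same-numbered arrays from their group means correlated at -0.13, 0.33 and 0.26. For 2 of 3 numbers each array correlated best with its own number. These values do not settle whether the replicate numbers pair the arrays. With the replicate number as a block, 2 Hox genes were called lower, Hoxa10 (adjusted p = 0.0162) and Hoxa6 (adjusted p = 0.036, both limma), and the counts were 2 TALE and 5 retinoid and Cdx genes.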

Other observations

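Homeobox genes outside the Hox clusters were listed by symbol after the data were seen, without the TALE and Cdx genes given above. The list does not cover every such gene and held 118 measured genes. Of these 3 rose and 7 fell in AGR cells (limma, adjusted p under 0.05), and their median log2 FC was -0.04. Over all genes tested, 12.6% were called higher and 11.6% lower, with a median log2 FC of -0.02. A single one of them, Prox1, a homeodomain factor of lymphatic endothelium and liver, passed an FC of 2, with a log2 FC of -2.10, as did 3.00% of all genes.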
